A study of Mus musculus with 4 samples.

Results

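The neutrophil granule and antimicrobial genes described here were S100a8, S100a9, Lcn2, Ngp, Camp, Ltf, Mpo, Retnlg, Csf3r and Cxcr2, 10 of the 22913 genes listed for mouse dermal white adipose tissue (dWAT). They were taken by name after the gene identifiers had been matched to mouse symbols. Camp was on the list because dermal fat is known to make cathelicidin, and S100a9 because its level was higher in both old libraries, so S100a9 was chosen by its measured FPKM in the old and young libraries and its age difference is a description. Levels are FPKM, fragments mapped to a gene scaled to the gene's length and to the fragments mapped in the library.

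Neutrophils carry their weapons in granules that are filled in sequence while the cell matures in the bone marrow. Azurophil granules, packed first with myeloperoxidase and serine proteases, are followed by specific granules with lactoferrin, lipocalin 2, cathelicidin and neutrophilic granule protein, while the calgranulins S100a8 and S100a9 fill the cytosol of the mature cell. Several of these proteins also belong to other cells of skin, since stressed keratinocytes make calgranulins and lipocalin 2, fat cells secrete lipocalin 2, and the fat cells under the dermis release cathelicidin against bacteria.

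dWAT is the fat layer that surrounds the lower ends of hair follicles (HFs), and it was dissected from the skin of C57BL/6 mice and sequenced as total RNA. There were 4 groups with 1 library each, OTD (old mice, HFs in telogen, the resting phase), YTD (young mice in telogen), OAD (old mice in anagen, the growth phase, induced by plucking the hair) and YAD (young mice in plucked anagen). The sample titles name the mice as old or young, and by the treatment protocol old mice were 18 months and young mice 2 months of age. The age field of the labels instead gives 18 months for YTD and 2 months for OAD. The sources used here give no other genotype or treatment, and the study's methods list several mice for each group, so that 1 library stands for several mice, without saying how their tissue was combined. The anagen libraries differ from the telogen libraries by plucking as well as by phase, and these cannot be told apart.

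With 1 library per group there was no spread between replicates and no test, so what is compared is always 1 library with another. The depth, estimated from the lowest FPKM values, was 18300000 fragments in OTD and 18100000 in YTD, with 22700000 in OAD and 23800000 in YAD. From it each FPKM was turned into an estimated number of fragments, and 95% intervals around ratios cover counting error only. A value worth 3 fragments or fewer was treated as at or under the floor of the library. Genes of the mitochondrial genome took 52.7% and 44.7% of the summed FPKM in OTD and YTD but 18.3% and 14.4% in OAD and YAD, and the age differences below were therefore also computed on other scales. A change is the difference of log2(FPKM + 1), which shrinks the changes of weakly expressed genes. A gene counted as higher or lower where this change was at least 1 in size.

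The 300 bases from 250 before to 50 after the start site of 4 of the genes are printed because their levels carry most of what follows (RefSeq, GRCm38.p6, 5′ to 3′ on the gene's own strand). Capitals mark matches on either strand, which do not overlap, to TATAAA, the TATA box, and to TTGCNNAA, a core of the sites of C/EBP proteins, factors of myeloid, fat and liver cells.
S100a8 (chr3:90668821-90669120, plus strand): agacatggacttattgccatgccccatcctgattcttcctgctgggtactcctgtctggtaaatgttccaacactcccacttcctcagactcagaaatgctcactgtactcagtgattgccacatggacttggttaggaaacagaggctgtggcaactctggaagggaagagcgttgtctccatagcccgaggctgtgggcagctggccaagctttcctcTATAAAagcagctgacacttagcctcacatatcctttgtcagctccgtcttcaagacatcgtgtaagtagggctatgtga
S100a9 (chr3:90695672-90695971, minus strand): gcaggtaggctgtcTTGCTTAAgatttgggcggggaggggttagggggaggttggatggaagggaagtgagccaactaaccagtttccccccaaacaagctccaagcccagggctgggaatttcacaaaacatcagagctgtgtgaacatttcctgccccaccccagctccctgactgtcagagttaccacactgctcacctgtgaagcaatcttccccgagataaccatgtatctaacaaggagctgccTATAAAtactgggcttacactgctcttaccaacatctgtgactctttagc
Lcn2 (chr2:32387690-32387989, minus strand): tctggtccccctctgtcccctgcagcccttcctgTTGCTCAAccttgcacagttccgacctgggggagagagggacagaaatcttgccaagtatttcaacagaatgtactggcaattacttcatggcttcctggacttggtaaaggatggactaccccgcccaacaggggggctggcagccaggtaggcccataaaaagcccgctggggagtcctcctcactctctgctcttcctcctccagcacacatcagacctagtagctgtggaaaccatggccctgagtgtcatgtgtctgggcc
Camp (chr9:109849407-109849706, minus strand): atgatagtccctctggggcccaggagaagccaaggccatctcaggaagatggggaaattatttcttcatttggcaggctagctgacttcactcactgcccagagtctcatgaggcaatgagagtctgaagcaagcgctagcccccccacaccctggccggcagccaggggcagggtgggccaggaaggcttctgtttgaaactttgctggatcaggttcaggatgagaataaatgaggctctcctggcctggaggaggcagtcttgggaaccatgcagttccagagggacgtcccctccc
TATAAA was present in the windows of S100a8, starting 30 bases before the start site (-30), and of S100a9, starting at position 0, the start site itself, and in 13.6% of all 32544 distinct RefSeq promoter windows. TTGCNNAA was present in those of S100a9, Lcn2, Ngp, Ltf and Retnlg, 5 of the 10 genes, and in 10.8% of all windows. Camp, Mpo, Csf3r, Cxcr2 and S100a8 had none of it. Searches on both strands for TGANTCA (AP-1) and TTCNNNGAA (STAT) found no match in the windows of the 10 genes, against 7.79% and 8.33% of all windows.

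S100a8 held most of the signal of these genes, and its partner S100a9 was higher in both old libraries. The summed FPKM of the 10 genes was 154 in OTD and 123 in YTD, with 148 in OAD and 64.1 in YAD, of which S100a8 alone gave 80.1%, 92.7%, 87.1% and 88.4%. Most of the others were scarce. The number of genes above the floor was 6 in OTD and 4 in YTD, with 9 in OAD and 6 in YAD, and Mpo was listed at 0 in every library.

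**Figure D1:**
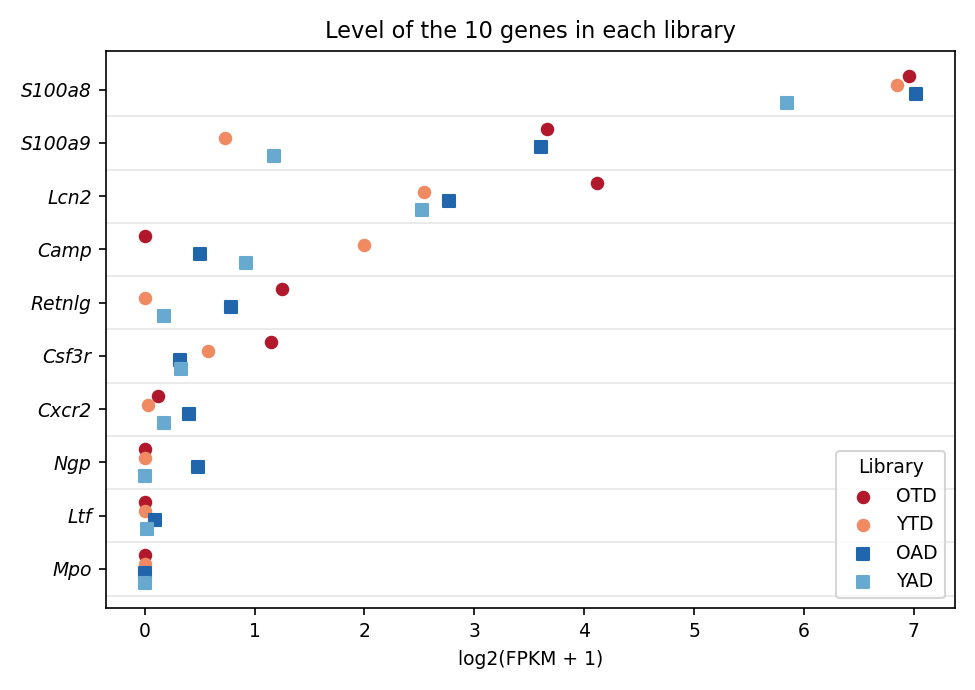
Level of each of the 10 genes as log2(FPKM + 1) on the x axis, with 1 symbol per library (circles, telogen; squares, anagen; dark, old; light, young). S100a8 lay between 56.7 and 129 FPKM in the 4 libraries, S100a9 was near 11 FPKM in both old libraries and at most 1.26 FPKM in the young ones, and Ngp, Ltf and Mpo lay at or close to 0.

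**Figure D2:**
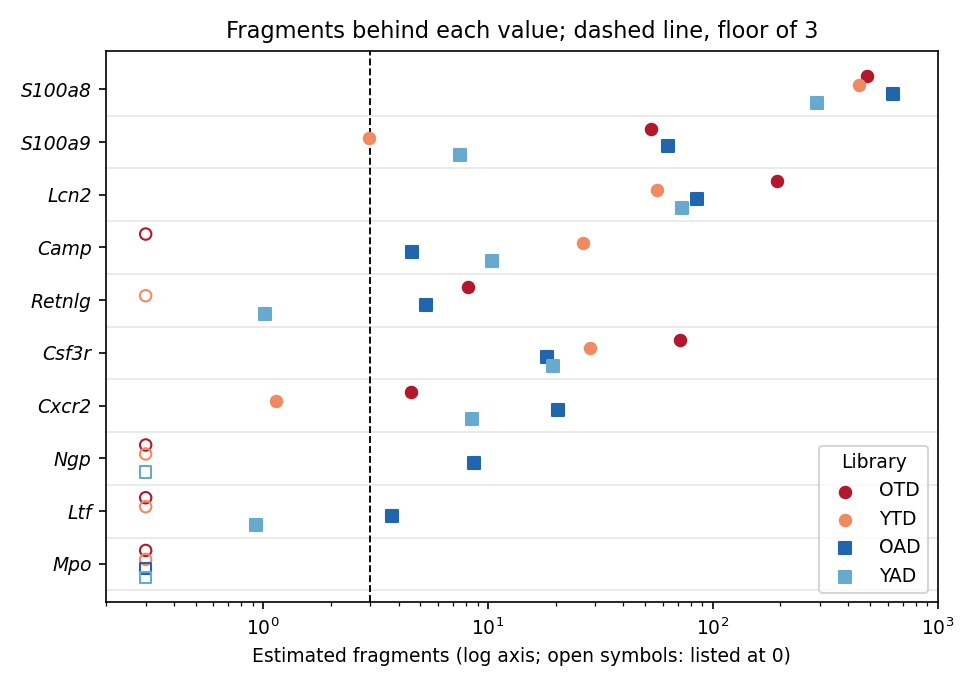
Estimated fragments behind each value on a log axis, with the floor of 3 fragments as a dashed line and open symbols for genes listed at 0. S100a8 rested on 291 to 632 fragments per library, S100a9 on 3 fragments in YTD, and Retnlg, Cxcr2, Ngp and Ltf on at most 20 fragments in any library.

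Calgranulins are small calcium-binding proteins that pair into calprotectin, which withholds zinc and manganese from microbes and signals through Tlr4 and Ager. S100a8 (ENSMUSG00000056054, chr3:90669071-90670034, plus strand) stood at 123 FPKM in OTD and 114 in YTD, with 129 in OAD and 56.7 in YAD. On this scale 3 libraries lay close together and YAD lay below them. In telogen the old over young ratio was 1.08 (95% counting interval 0.952 to 1.24), an interval that includes 1. In anagen it was 2.28 (1.98 to 2.63), a change of 1.17. The S100a8 level in YAD was 0.498 of that in YTD (0.428 to 0.578), while OAD was 1.05 times OTD (0.926 to 1.18). This pattern between phases depended on the scale, since in TPM, which gives every library the same sum, the change was -0.16 for YAD against YTD and 0.68 for OAD against OTD. By rank among all 22913 genes S100a8 was 648th in OTD, 801st in YTD, 615th in OAD and 1300th in YAD.

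S100a9 (ENSMUSG00000056071, chr3:90692632-90695721, minus strand), which lies 22.6 kb from S100a8, stood at 11.7 FPKM in OTD and 0.656 in YTD, with 11.2 in OAD and 1.26 in YAD. Both old libraries were high and both young libraries low, on 53, 3, 63 and 7 fragments in the same order. In telogen the ratio of old to young was 17.8 (5.66 to 87.4), a change of 2.93 that ranked 9th from the highest among 17230 genes with a value above 0 in either library. In anagen the ratio was 8.84 (4.32 to 24.4), a change of 2.43 that ranked 2nd among 17613 genes. Between phases the intervals included 1, with a ratio of anagen to telogen of 0.957 (0.654 to 1.41) in old mice and 1.93 (0.405 to 10.6) in young mice.

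The levels of the calgranulin pair did not move in step, which is a description, since S100a9 was chosen by its age difference. The ratio of S100a8 to S100a9 FPKM was 10.6 in OTD and 11.6 in OAD, but 174 in YTD and 44.9 in YAD. The level of S100a9 in YTD lay under its floor of 0.666 FPKM, whereas S100a8 in YTD was high. The changes of S100a8 were 0.12 in telogen and 1.17 in anagen, and those of S100a9 were 2.93 and 2.43. Across other scalings of the libraries the telogen change of S100a9 ranged from 2.76 to 3.07 and its anagen change from 2.31 to 2.44. That of S100a8 in anagen ranged from 0.95 to 1.19, and it fell under 1 with values rescaled to TPM.

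**Figure D3:**
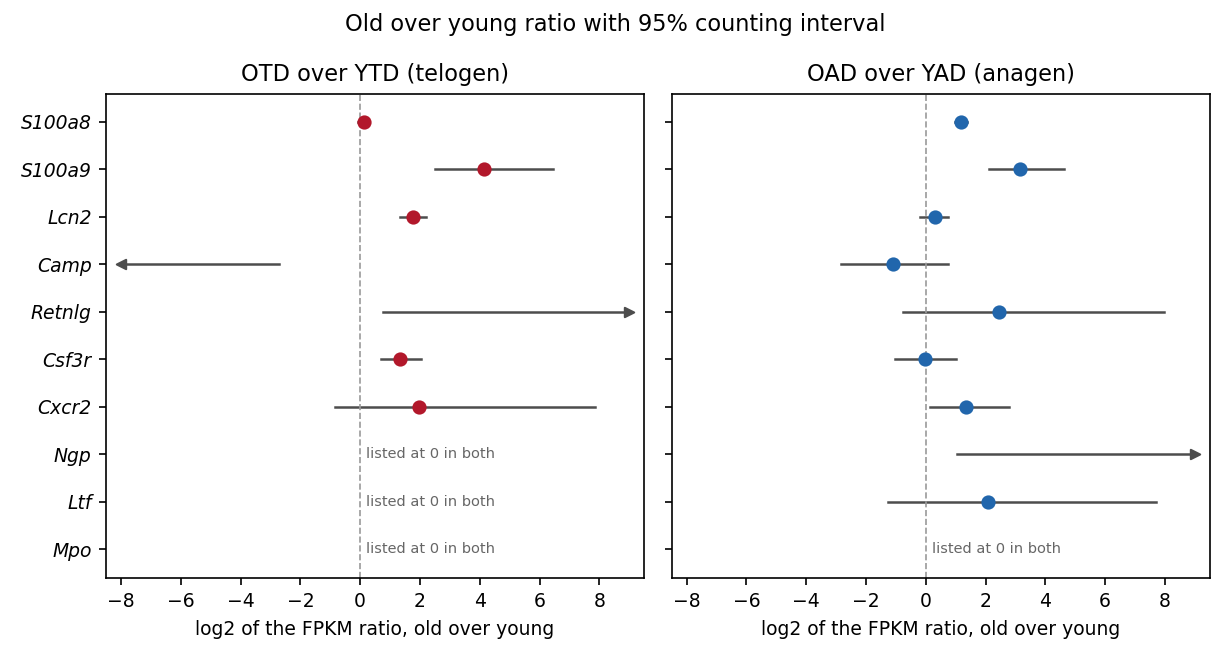
Ratio of old to young FPKM on a log2 axis in telogen (left) and anagen (right), with points for ratios, lines for 95% counting intervals, and arrows where a library was at 0 and the interval has no bound on that side. The intervals of S100a9 lay to the right of 0 in both panels, those of Lcn2, Csf3r and Retnlg in telogen, those of S100a8, Cxcr2 and Ngp in anagen, and that of Camp lay to the left in telogen.

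Specific granule genes gave no common direction. Lcn2 (ENSMUSG00000026822, chr2:32384633-32388252, minus strand), which binds bacterial siderophores to keep iron from microbes, stood at 16.3 FPKM in OTD and 4.82 in YTD, with 5.83 in OAD and 4.74 in YAD. OTD was high and the other 3 libraries lay between 4.74 and 5.83 FPKM. The telogen ratio of old to young was 3.38 (2.51 to 4.65), a change of 1.57 resting on 192 and 56 fragments. In anagen the ratio was 1.23 (0.882 to 1.69), which includes 1. In old mice the level in OAD was 0.357 of that in OTD (0.273 to 0.463), a change of -1.34, which became -0.79 in TPM and then no longer passed the threshold.

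Camp (ENSMUSG00000038357, chr9:109847377-109849456, minus strand), the cathelicidin whose cleaved peptide disrupts bacterial membranes, went the other way. It was listed at 0 in OTD and stood at 2.996 FPKM in YTD, 0.413 in OAD and 0.893 in YAD, on 0, 26, 5 and 10 fragments. YTD was high and both old libraries were low. The level in OTD, set to the floor of 3 fragments, was at least 8.92-fold lower than in YTD, and the change was -1.998. The counting interval of the ratio of old to young reaches up to 0.151. In anagen the old over young ratio was 0.463 with a counting interval of 0.141 to 1.68, so a difference was not detectable at this depth. In young mice Camp in YAD was 0.298 of YTD (0.126 to 0.627), a change of -1.08, which became -0.57 in TPM.

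Ngp (ENSMUSG00000032484, chr9:110419808-110423010, plus strand), a cathelicidin-like protein of neutrophil granules, and Ltf (ENSMUSG00000032496, chr9:111019292-111042766, plus strand), the iron-binding lactoferrin, lie on the same chromosome as Camp, with 570 kb between Camp and Ngp and 596 kb between Ngp and Ltf. Ngp was found in OAD alone, at 0.401 FPKM on 9 fragments, and against the floor of 3 fragments was at least 3.03-fold higher there than in YAD and at least 2.33-fold higher than in OTD. The counting intervals of these ratios start lower, at 2.07 and 1.59. Ltf was listed at 0 in both telogen libraries and stood at 0.0664 FPKM in OAD on 4 fragments and 0.0157 in YAD on 1 fragment. The ratio of these was 4.22 (0.415 to 207).

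Mpo (ENSMUSG00000009350, chr11:87793581-87804413, plus strand), the myeloperoxidase of azurophil granules that makes hypochlorous acid, was listed at 0 in all 4 libraries, which at 3 fragments allows up to 0.0508 to 0.0668 FPKM. An antisense gene, Gm11505, overlaps it in the annotation, and whether counting used strand is not given in the sources used here. Mpo transcripts are made mainly by precursors in the bone marrow.

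Retnlg (ENSMUSG00000022651, chr16:48872608-48874498, plus strand), a resistin-like secreted protein of neutrophils, stood at 1.38 FPKM in OTD and 0 in YTD, with 0.725 in OAD and 0.132 in YAD. Both old libraries were higher than both young ones, but on only 8, 0, 5 and 1 fragments. Retnlg in OTD was at least 2.69-fold higher than in YTD when YTD is set to the floor of 3 fragments, a change of 1.25, while the counting interval of the ratio starts at 1.69, and the anagen ratio was 5.48 with an interval of 0.587 to 248. Its family members Retn and Retnla, which are made by fat cells and macrophages, were far more abundant and did not share this order. Retn, the resistin of mouse fat cells, stood at 287, 329, 90.6 and 73.5 FPKM in OTD, YTD, OAD and YAD, and Retnla, which lies 28.1 kb from Retnlg, at 179, 164, 14.01 and 21.2 FPKM. Retnlb was listed at 0 in all libraries.

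Receptors were low throughout. Csf3r (ENSMUSG00000028859, chr4:126024550-126044440, plus strand), the receptor for the growth factor that drives neutrophil production, stood at 1.22 FPKM in OTD and 0.490 in YTD, with 0.251 in OAD and 0.254 in YAD. OTD was the highest and both anagen libraries the lowest. The telogen ratio of old to young was 2.49 (1.62 to 4.09) on 72 and 28 fragments, although the change on the log2(FPKM + 1) scale was only 0.58, and the anagen ratio was 0.989 (0.492 to 2.00). In old mice Csf3r in OAD was 0.206 of OTD (0.113 to 0.341).

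Cxcr2 (ENSMUSG00000026180, chr1:74153989-74161246, plus strand), the receptor that guides neutrophils to CXC chemokines, stood at 0.0892 FPKM in OTD and 0.0227 in YTD, with 0.324 in OAD and 0.128 in YAD, on 5, 1, 20 and 8 fragments. OAD was the highest. The anagen ratio was 2.53 (1.11 to 6.88), and the telogen ratio was 3.93 (0.553 to 234). Within old mice the order of the receptors was opposite, since Cxcr2 in OAD was 3.63 times OTD (1.17 to 10.995).

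Of the 10 genes, 7 had a value above 0 in at least 1 telogen library and 9 in at least 1 anagen library. In telogen 3 genes were counted as higher in old mice (S100a9, Lcn2 and Retnlg), where 1.67% of all tested genes were, and 1 as lower (Camp), where 1.93% were. In anagen 2 were counted as higher (S100a8 and S100a9), against 0.727% of tested genes, and 0 as lower, against 0.454%. Because S100a9 was chosen for this contrast and the list was drawn up with it in view, nothing is read from these counts. The shares for all genes moved with the scale of the libraries, from 1.67% higher and 1.93% lower to 2.84% and 1.08% in telogen when mitochondrial genes were left out, and from 0.727% and 0.454% to 0.590% and 0.994% in anagen in TPM. The median change of the listed genes was 0.58 in telogen and 0.25 in anagen, beside -0.03 and 0.00 for all tested genes. Of all tested genes 7889 of 17230 were higher in OTD than in YTD and 8800 of 17613 higher in OAD than in YAD, and the counts for the gene lists below stand beside these numbers and the shares past the threshold just given.

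**Figure D4:**
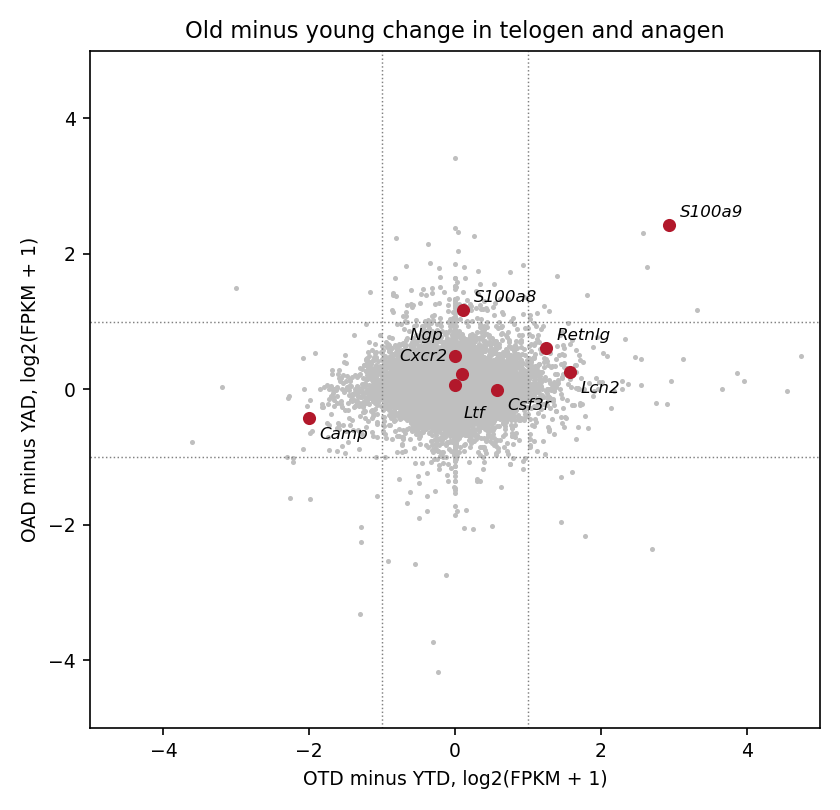
Change from young to old in telogen (x axis) and in anagen (y axis), both as differences of log2(FPKM + 1), for all genes tested in either phase (grey) and for the listed genes (red), with dotted lines at a change of 1 in size. S100a9 lay at 2.93 and 2.43, far from the bulk on both axes, Camp at -1.998 and -0.42, Lcn2 at 1.57 and 0.25, and S100a8 at 0.12 and 1.17. Mpo had no value above 0 and is not drawn.

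Between phases 8 of the listed genes had a value above 0 in young mice and 9 in old mice. Nothing is read from the counts that follow, since most of these genes were scarce. In young mice 0 were counted as higher and 1 (Camp) as lower in anagen than in telogen, where 16.1% of tested genes were higher and 16.7% lower. In old mice 0 were higher and 1 (Lcn2) lower, against 16.1% and 15.6%. S100a8 in young mice, at a change of -0.99, was just under the threshold. These comparisons use the same 4 libraries as the age comparisons, so a low or high library enters both.

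The age difference differed between the phases by 1.32 for Lcn2 (1.57 in telogen, 0.25 in anagen), by -1.06 for S100a8 and by -1.58 for Camp. For S100a9 it was 0.51. Whether these differences exceed the spread between mice was not tested.

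Markers that define neutrophils were scarce in the same libraries. Ly6g, the surface protein that marks mouse neutrophils, was listed at 0 in OTD, YTD and YAD and at 0.0777 FPKM on 1 fragment in OAD. Of 11 neutrophil markers, 6 were above the floor in OTD and 2 in YTD, with 1 in OAD and 1 in YAD, and 2, 5, 5 and 7 were listed at 0. Their summed FPKM was 12.2, 7.17, 4.38 and 1.44 in the same order. Prtn3, a serine protease of azurophil granules, gave most of it at 8.88, 6.29, 4.14 and 1.27 FPKM, with an anagen change of 1.18. Elane, neutrophil elastase, stood at 0.936 FPKM in OTD and 0.651 in YTD and at 0 in both anagen libraries. Prtn3 and Elane lie 3.14 kb apart, and Elane lies 2.64 kb from Cfd, the fat cell gene for adipsin, which stood at 3401, 3216, 1155 and 822 FPKM. Whether fragments of Cfd entered the values of its neighbours was not tested. In bulk tissue fewer cells of a type and less RNA per cell cannot be told apart.

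Other granule genes were shared with macrophages. Among 15 further genes of specific and gelatinase granules, 13 had values in telogen, of which 11 were higher and 2 lower in old mice, with 2 past the threshold and a median change of 0.37. Itgb2, the common chain of leukocyte integrins, went from 2.86 FPKM in YTD to 11.6 in OTD (ratio 4.06, 3.37 to 4.91), and Cybb, the catalytic chain of the phagocyte oxidase, from 3.53 to 8.47 (2.40, 2.09 to 2.76). In anagen 10 of 14 were higher and 4 lower, 0 past the threshold, with a median of 0.04, and 7 of 14 were higher in TPM. The azurophil list besides Mpo had 3 of 5 genes with values in each phase, all 3 higher in telogen with 0 past the threshold, and 2 of 3 higher in anagen (1 of 3 in TPM) with Prtn3 past it.

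Genes of the neutrophil surface and cytosol split in telogen, where 9 of 14 were higher (10 without mitochondrial genes in the scale) and 5 lower, with 0 and 2 past the threshold. Those 2 are known from keratinocytes as well. Wfdc21, a secreted whey acidic protein, stood at 59.6 FPKM in OTD and 194 in YTD (change -1.69), and Asprv1, a protease of the upper epidermis, at 2.27 and 6.46 (-1.19). In anagen 10 of 12 were higher and 0 passed the threshold. The Asprv1 level in anagen was 305 FPKM in OAD and 207 in YAD, far above telogen.

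Chemoattractants were higher in OTD than in YTD. Of 9 genes for neutrophil attractants and growth factors 7 had values in telogen, and all 7 were higher in OTD, 2 past the threshold, where 1.67% of all tested genes were. Cxcl1, a ligand of Cxcr2, stood at 15.1 FPKM in OTD and 0.109 in YTD, with 0.345 in OAD and 0.137 in YAD, and its telogen ratio was 139 (33.1 to 7422) on 189 fragments and 1 fragment. Cxcl3 stood at 1.16 FPKM in OTD, on 16 fragments, and at 0 in the other libraries, at least 5.22-fold higher than in YTD. Cxcl2 was at 0.782, 0.158, 0 and 0.0516 FPKM and Cxcl5 at 0.639, 0.176, 0.0351 and 0 FPKM in OTD, YTD, OAD and YAD. In anagen 4 of 6 were higher and 0 passed the threshold. The sensors of calgranulins, a list of 4 with Tlr4 and Ager, had 3 higher in telogen and 1 in anagen (0 in TPM), and 0 past the threshold in either phase.

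Other antimicrobial genes of skin were higher in OTD for 10 of 14 with values, of which 4 passed the threshold, and in OAD for 10 of 12 (8 in TPM), of which 1 passed. Defb6, a defensin of epithelia, stood at 10.97 FPKM in OTD and 3.54 in YTD, with 17.9 in OAD and 4.95 in YAD. It was higher in both old libraries like S100a9, but on 11, 3, 22 and 6 fragments, and its telogen interval (0.958 to 20.2) includes 1 while its anagen interval (1.51 to 11.6) does not. Rnase4, at 124 FPKM in OTD and 59.8 in YTD, and Ang, at 12.3 and 5.59, are ribonucleases with antimicrobial activity that share overlapping transcripts, so fragments may be split between them. Defb8 was at 2.89 FPKM in OTD and 0 elsewhere, on 3 fragments, no more than the floor.

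The S100 family apart from the calgranulins had 14 listed genes. In telogen 7 of 12 with values were higher and 5 lower, with S100a3 past the threshold, and in anagen 10 of 11 were higher with 0 past it, a count that became 6 of 11 in TPM. S100a3, a protein of the hair cuticle, stood at 43.7 FPKM in OTD and 136 in YTD, with 4415 in OAD and 4352 in YAD. S100a7a, which skin makes under inflammation, was at 2.58, 2.62, 82.4 and 49.0 FPKM, so that it, unlike S100a9, followed the phase.

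Marker lists of the other cells of skin moved with the libraries as well, and their part in the levels of the 10 genes was not tested. In anagen 6 of 6 measured markers of activated keratinocytes were higher in OAD, where S100a8 was also higher, their FPKM summing to 2987 (OAD) and 1851 (YAD) with a median change of 0.86. Krt6a went from 62.2 to 157 FPKM (change 1.32) and Krt6b from 0.415 to 3.76 (1.75). In telogen the sum was 78.2 in OTD and 105 in YTD, 4 of 6 being higher in OTD. S100a8 in both telogen libraries was near its OAD level in FPKM, whereas in TPM its change was 0.68 for OAD against OTD. Of 6 measured markers of basal and suprabasal keratinocytes, 5 were higher in OAD and 2 in OTD (3 without mitochondrial genes in the scale). Their summed FPKM was 50.1 in OTD and 72.3 in YTD, with 1215 in OAD and 792 in YAD. Krt14, a keratin of basal cells, stood at 27.6, 34.3, 453 and 222 FPKM (anagen change 1.02), and Lor, a protein of the cornified layer, at 2.92 in OAD and 6.94 in YAD (-1.02).

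Macrophage markers were higher in OTD for 8 of 9 genes, like Lcn2 and Csf3r, and lower in OAD for 9 of 9. Their sums were 349, 266, 63.6 and 83.6 FPKM in OTD, YTD, OAD and YAD. Cd68, of the macrophage lysosome, went from 17.5 FPKM in YTD to 41.6 in OTD (change 1.201), and Adgre1, which encodes F4/80, from 4.59 to 9.68 (0.93). Of the 3 monocyte markers 2 were higher in each phase, Plac8 with changes of 1.28 and 1.16. Their sums were 134, 63.9, 7.87 and 3.43 FPKM. Eosinophil markers were at or near 0, with sums of 1.27, 0.627, 0.151 and 0 FPKM, Prg2, Epx, Siglecf and Ccr3 together.

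Adipocyte markers were abundant, but their summed FPKM lay below that of the skeletal muscle markers in every library. The muscle sums were 33985 FPKM in OTD and 52853.5 in YTD. Adipoq, which encodes adiponectin, stood at 427 FPKM in OTD and 280 in YTD, with 103 in OAD and 76.5 in YAD. Of the adipocyte markers 7 of 8 in telogen and 8 of 8 in anagen were higher in old mice. The latter count was 5 of 8 in TPM, and 0 passed the threshold in either phase. Camp, which both fat cells and neutrophils are known to make, was highest in YTD, where the adipocyte sum was 5878 FPKM against 7319 in OTD. Which cells gave the Camp signal here was not tested. Blood was present in all libraries. Hbb-bs stood at 329, 254, 132 and 88.4 FPKM and 6 of 7 erythrocyte markers were higher in the old library of each phase, though these globin genes have near-identical copies whose fragments may be split. Sums of the list were 749, 602, 367 and 226 FPKM, an old over young order that S100a9 shares. Skeletal muscle markers were lower in OTD for 4 of 4 (Myh4 at 1192 against 2661 FPKM, change -1.16) and higher in OAD for 4 of 4 (summed FPKM of 8710 against 6104 in YAD, median change 0.50), and melanocyte markers lower in OAD for 4 of 4 (Pmel at 90.5 against 186 FPKM, -1.03). With 0 past the threshold, 4 of 4 mast cell markers were higher in OTD and lower in OAD, 3 of 4 platelet markers were higher in OTD and 2 of 4 in OAD, and 3 of 3 endothelial markers were higher in each old library (2 of 3 in TPM in anagen).

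**Figure D5:**
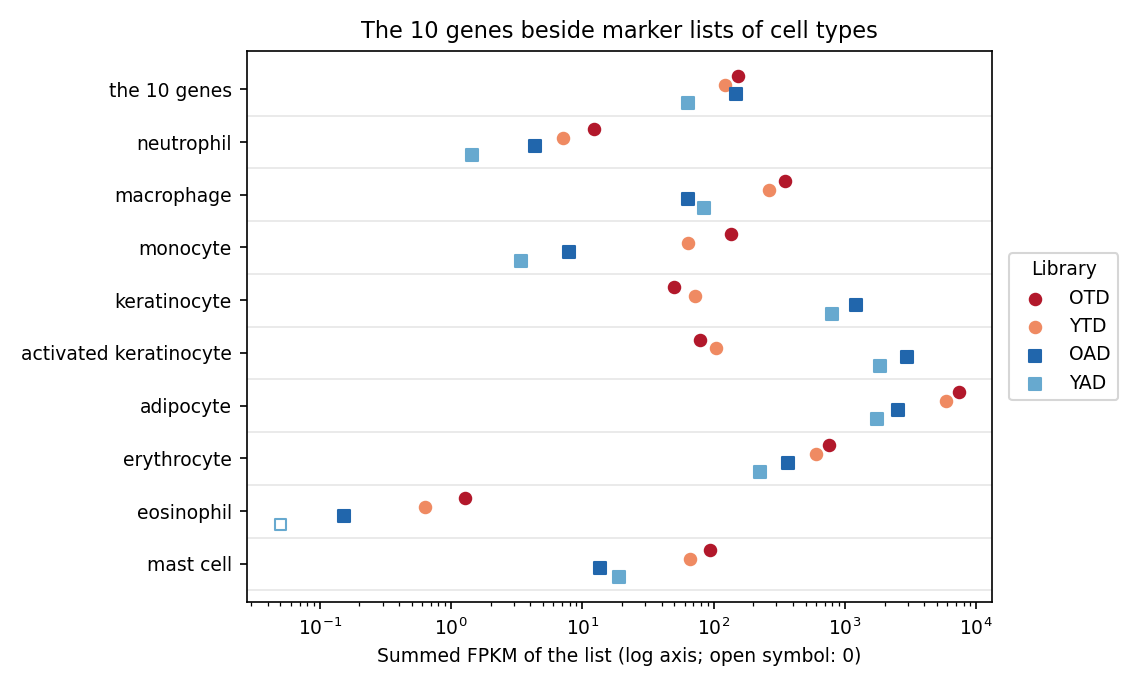
Summed FPKM of the 10 genes and of marker lists for cell types on a log axis, 1 symbol per library. The neutrophil list summed to 1.44 to 12.2 FPKM, below the 10 genes (64.1 to 154 FPKM) in every library. S100a8 alone gave 80.1% (OTD) to 92.7% (YTD) of the sum of the 10 genes. Keratinocyte lists were high in anagen, and macrophage, monocyte and adipocyte lists high in telogen.

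The genes most like 4 of the members were found by the distance of their levels over the 4 libraries, among 14203 genes with at least 1 FPKM in a library, each centred on its own mean. With only 4 points this closeness is a description. S100a9 had no close match, and the nearest was Defb6 at a distance of 1.25, followed by an unnamed gene, ENSMUSG00000096506, at 1.27 and by Egr1, an immediate early transcription factor, at 1.55. Egr1 stood at 71.0, 7.25, 50.6 and 36.7 FPKM in OTD, YTD, OAD and YAD, so that it was low in YTD only. The others were an unannotated locus (Mouse_newGene_2487) at 1.62 and Tmsb15b2 at 1.63.

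S100a8 had closer matches, with Gm10638 at 0.13, Gm9844 at 0.14, Nnat at 0.17, Rabgap1l at 0.34 and Rpl10-ps3 at 0.36. Nnat, an imprinted gene known from brain and fat, stood at 33.4, 35.2, 36.9 and 17.5 FPKM, low in YAD as S100a8 was. Lcn2 was closest to Klf11 at 0.12, a transcription factor of the Krüppel family at 7.24, 2.00, 2.53 and 1.72 FPKM, then to Eci3 at 0.20, Adamts1 at 0.20, ENSMUSG00000062783 at 0.21 and Gm2174 at 0.22. Adamts1, a secreted protease, stood at 24.7, 7.83, 7.62 and 7.16 FPKM, high in OTD alone. Camp was closest to Mdga1 at 0.14, Wnk1 at 0.19, Mia3 at 0.45, an unannotated locus (Mouse_newGene_613) at 0.45 and Zfp385a at 0.51. Wnk1, a kinase that governs ion transport, stood at 23.9, 98.1, 35.8 and 40.3 FPKM, high in YTD and lowest in OTD as Camp was.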

How the data were processed

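RNA sequencing measured gene expression in dWAT in 4 libraries, grouped by the sample titles. The authors deposited FPKM per gene on GRCm38. Their processing notes name bcl2fastq and TopHat2, without roles or versions, and the counting tool, annotation and strand setting are not given in the sources used here. The listed gene lengths are coding lengths (97.0% are multiples of 3), whereas the FPKM follow transcript length. Depth was therefore fitted as the value at which the lowest FPKM of 4047 genes with 1 transcript in GENCODE M21 fall on whole fragments, using transcript length less 270 bases, and 75.5% to 92.8% of those worth about 1 fragment lay within 0.2 of it.

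FPKM were used as deposited with a pseudocount of 1. Ratio intervals are exact (Clopper-Pearson) on rounded fragments. Of 22913 identifiers 21750 were matched to a symbol, and Flg, on a keratinocyte list, was not analysed here. The members and the lists were chosen with earlier results of these data known. Named from other lists are genes with a change of at least 1 in either age comparison (at most 4 per list), defining markers, Cxcr2 ligands and the resistin family and the genes most like 4 members. Cfd and S100a7a were named after their values were seen. 

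On simulated libraries of 21612 genes, 200 of 200 genes changed by 2 (log2) were counted in the right direction in both phases. Of 21412 unchanged ones, 9 (telogen) and 2 (anagen) were counted. The changed genes were drawn only from those with a high mean FPKM, and only counting noise was simulated. This recovery does not carry over to weakly expressed genes, as most of the listed genes were. The pseudocount of 1 also shrinks the changes of such genes. Ltf in anagen, at an old over young ratio of 4.22, had a change of only 0.07. Alternatives were pseudocounts of 0.1 and 0.01, a filter at 1 FPKM, the median of ratios, TPM, common sums without mitochondrial genes or also without keratin, melanocyte and muscle genes, and a threshold of 1.5. Python 3.11.15, numpy 2.4.6, pandas 2.3.3, scipy 1.17.1 and matplotlib 3.10.9 were used.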

Additional observations from a re-analysis of the deposited data

Results flagged for a closer look

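None of the 10 genes moved in opposite directions with age in telogen and anagen by more than its counting interval. Several genes of the lists beside them did, and 5 of these were also past the threshold in 1 phase. With 1 library per group the difference between phases was not tested. Asprv1 had a change of -1.19 in telogen and 0.55 in anagen, Krt14 -0.31 and 1.02, Lor 0.79 and -1.02, Myh4 -1.16 and 0.32, and S100a3 -1.62 and 0.0205. The anagen change of S100a3 turned negative on some scales (-0.21 to 0.04), and Myh4 in telogen (-1.16 to -0.94) and Krt14 in anagen (0.79 to 1.04) went under the threshold on some.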

How the results depend on the processing

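S100a9 was counted as higher in old mice in both phases under every alternative. This is a description, since S100a9 was chosen by its age difference. Lcn2 (higher) and Camp (lower) in telogen were also counted under every alternative, and Retnlg in all but the threshold of 1.5. No called change of the 10 genes turned its sign. Of 64 recounts 44 stayed within 1.5 times the count given, and the causes of the other 20 beyond the settings themselves were not tested. Recounts with the filter at 1 FPKM could not differ, since with a pseudocount of 1 a change of 1 needs at least 1 FPKM. Nor could a smaller pseudocount remove a called gene. Smaller pseudocounts count low genes on few fragments. With pseudocounts of 0.1 and 0.01 the genes higher in anagen in old mice went from 2 to 4 and 6, those higher in OAD than OTD from 0 to 3 and 4, those higher in YAD than YTD from 0 to 1 and 3, those lower in OAD than OTD from 1 to 2 and 2, and those lower in YAD than YTD from 1 to 2 and 2. With 0.01 alone, the genes higher in telogen in old mice went from 3 to 5 and those lower in anagen from 0 to 1. In TPM and with a threshold of 1.5, the genes higher in anagen in old mice fell to 1 and those lower in anagen than telogen to 0 at both ages. Lower in YAD than YTD were also 0 without mitochondrial genes and 0 without keratin, melanocyte, muscle and mitochondrial genes. Over all genes, those counted as higher and lower went from 287 and 333 to 1081 and 1063 (pseudocount 0.1), 1800 and 1645 (0.01), 490 and 186 (without mitochondrial genes), 433 and 200 (also without keratin, melanocyte and muscle genes) and 70 and 71 (threshold 1.5) in telogen, and from 128 and 80 to 577 and 532, 1236 and 1199, 96 and 116, 110 and 119, and 31 and 27 in anagen, where TPM gave 104 and 175. The median of genes with at least 1 FPKM moved from 0.00 to -0.21 in anagen and from 0.03 and 0.05 to 0.76 and 0.58 between phases in TPM. Relative to that median, over all scalings, the change of S100a8 in anagen was 1.16 to 1.17, that of S100a9 2.82 to 2.99 in telogen and 2.42 to 2.59 in anagen, that of Lcn2 in telogen 1.59 to 1.64, and that of Camp in telogen -2.03 to -1.70. In telogen Ang (0.98) and Cxcl3 (0.95) went under the threshold on some scales.

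Ratios with fewer than about 10 fragments in a library are limited by depth. Among them are those of Ngp, Ltf, Retnlg, Cxcr2 and Camp. Those of S100a9 to the young libraries are limited too, on 3 fragments in YTD and 7 in YAD. Leaving out a library leaves no comparison. No paired analysis was possible because each group has 1 library.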
